A study of Mus musculus with 13 samples.

Results

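The last step by which a thymic precursor becomes a regulatory T cell (Treg) was followed in mice that lack c-Rel. Of the 13 RNA sequencing libraries of the series, 5 describe this step: 2 of newly formed (de novo) thymic Tregs and 3 of thymic pre-Tregs, all labelled cRel-/-, chosen by the cell type and genotype of their labels and compared on the 22048 genes that the count tables of both stages list. The same step in wild-type mice, with 2 de novo Treg and 2 pre-Treg libraries, served to show where the step differed between genotypes. The remaining 4 libraries, of splenic Tregs, are compared with nothing here and were used only in an alternative fit of all 13 libraries.

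The mutant mice are labelled cRel-/-Foxp3rfp and the wild-type mice cRel+/+Foxp3rfp, all of strain C57BL6/J, so both genotypes carry the Foxp3rfp allele, in which a red fluorescent protein reports Foxp3 expression. No label limits the loss of c-Rel to T cells, and no source used here states the age, sex, number or pooling of the animals, or the surface markers of each sort gate. Cells came from thymus, were enriched for CD4 with magnetic beads and then sorted by flow cytometry. The libraries are therefore read as separate samples of a group on the strength of their titles alone. Whether they stand for separate animals is unknown, so p-values here reflect spread from library to library that could be technical.

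Tregs restrain immune responses and are defined by the transcription factor Foxp3. In the thymus they arise from CD4 thymocytes that bind self-peptides strongly through the T cell receptor (TCR): such precursors first gain IL-2 receptor chains and TNF receptor family members, and then turn on Foxp3 in response to IL-2 acting through STAT5. c-Rel, encoded by Rel, is an NF-κB subunit activated by TCR and CD28 signals, known to bind DNA at the Foxp3 locus, and mice without it have fewer thymic Tregs.

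Depth ranged from 16133876 to 29866696 counts in the cRel-/- thymic libraries and from 13656304 to 28235996 counts in the wild-type ones. The floor of detection was taken as 3 counts per library. Over the shared genes that is 0.105 to 0.228 CPM (counts scaled to a common library size), and 0.102 to 0.224 CPM after the normalisation used below. The biological coefficient of variation, the spread between replicates beyond counting noise, was 0.0885 in cRel-/- de novo Tregs and 0.296 in cRel-/- pre-Tregs. Pre-Treg replicate 2 stood apart from the other cRel-/- pre-Treg libraries. Its sample description also follows another naming style. Without it the pre-Treg coefficient was 0.184. Scaled over the 3016 genes that changed between the wild-type stages, with 0 at the wild-type pre-Treg mean and 1 at the wild-type de novo mean, the median positions were 0.988 and 0.983 for the cRel-/- de novo libraries and -0.0851, 0.400 and 0.129 for cRel-/- pre-Treg replicates 1, 2 and 3. Results are therefore given with and without pre-Treg replicate 2.

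**Figure D1:**
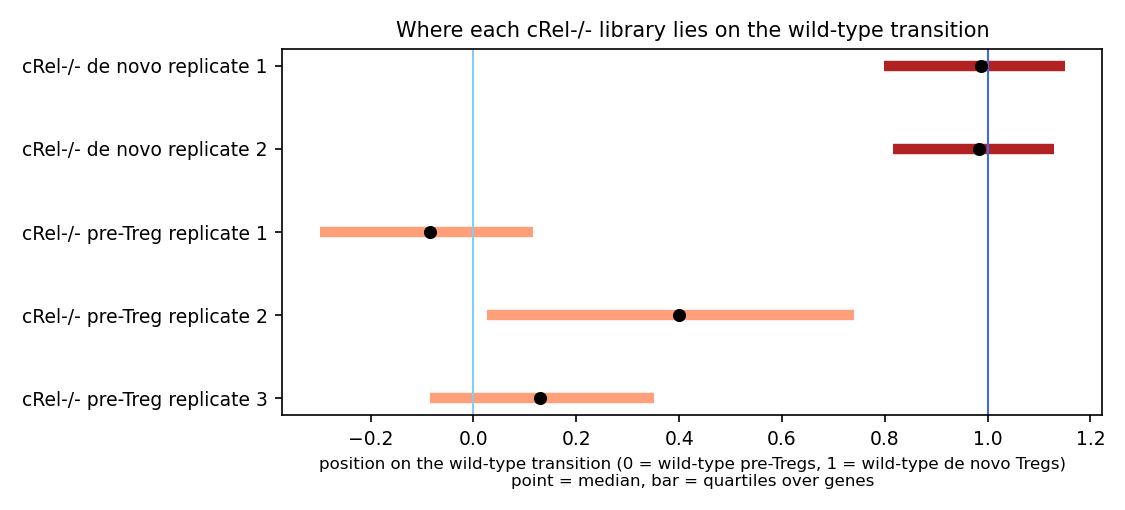
Position of each cRel-/- thymic library on the wild-type transition, where 0 is the wild-type pre-Treg mean and 1 the wild-type de novo Treg mean; points are medians and bars quartiles over the 3016 genes called between the wild-type stages. Both de novo libraries sit near 1 (0.988 and 0.983), while pre-Treg replicate 2 (0.400) lies between the other pre-Treg libraries (-0.0851 and 0.129) and the de novo ones.

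Library values below are in replicate order, in CPM normalised by the trimmed mean of M values (TMM). Fold changes are log2 ratios of de novo over pre-Treg. Their standard error (SE) was derived from edgeR's quasi-likelihood test, as the absolute log2 fold change over the square root of the F statistic. Adjusted p is the Benjamini-Hochberg value of that test over all 12608 genes tested. Calling a gene, or writing that it rose or fell, means an adjusted p under 0.05. Each stage was counted in a table of its own, so a difference between stages cannot be told apart from a difference between tables in either genotype. A table effect common to both genotypes cancels where the 2 transitions are compared.

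Foxp3, the gene that defines Tregs, rose across the step. It had 770.0 and 886 CPM in cRel-/- de novo Tregs, against 19.97, 49.7 and 45.5 CPM in cRel-/- pre-Tregs. All de novo libraries lay far above all pre-Treg libraries, and the lowest pre-Treg value was that of replicate 1. The log2 fold change was 4.43 (SE 0.46, edgeR adjusted p = 0.000142), a 21.5-fold difference. The mice report Foxp3 by fluorescence and the gates are not given, so the part of the sort in this difference was not tested. In wild type, Foxp3 had 844 and 831 CPM in de novo Tregs and 33.5 and 103 CPM in pre-Tregs, so the cRel-/- de novo libraries lay on both sides of the wild-type de novo values.

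The Foxp3 promoter is shown because c-Rel is known to act at this locus. The stretch chrX:7579426-7579725 of GRCm38.p6 (plus strand, RefSeq) covers 250 bases before and 50 after an annotated start of the gene. The κB consensus, the DNA motif of NF-κB dimers, was searched on both strands and would be in capitals; it had 0 matches here and 0 at the other RefSeq start, chrX:7580233-7580532.
Foxp3 promoter: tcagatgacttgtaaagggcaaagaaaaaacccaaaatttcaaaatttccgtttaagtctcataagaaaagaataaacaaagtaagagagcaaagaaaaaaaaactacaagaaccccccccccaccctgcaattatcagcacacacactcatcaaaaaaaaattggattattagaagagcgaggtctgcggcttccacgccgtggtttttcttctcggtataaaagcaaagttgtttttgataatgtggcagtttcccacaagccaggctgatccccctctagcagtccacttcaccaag
Of 32851 RefSeq promoters of the same 300 bases, 2779 (8.46%) hold the motif on either strand. That its letters are not in this window says nothing about where NF-κB binds.

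In all, 1749 of 12608 genes (13.9%) rose and 1815 (14.4%) fell from pre-Treg to de novo Treg without c-Rel. Of these, 734 rose and 1095 fell at least 2-fold, and 104 rose and 214 fell at least 8-fold. The libraries of the 2 stages did not overlap for 3553 of the 3564 called genes, and for 6743 of all genes tested (53.5%). Without pre-Treg replicate 2 the calls numbered 6465, with 3198 of 12351 genes (25.9%) higher and 3267 (26.5%) lower. Of the 3544 called genes tested again in that fit, 3526 kept call and direction. Leaving out a de novo library, which leaves 1 library to stand for the group, cut the calls to 1258 (without replicate 1) and 1111 (without replicate 2). With scaling by library totals in place of TMM, 1103 genes rose and 3027 fell, the median log2 fold change of all genes being -0.25 there and -0.03 with TMM.

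**Figure D2:**
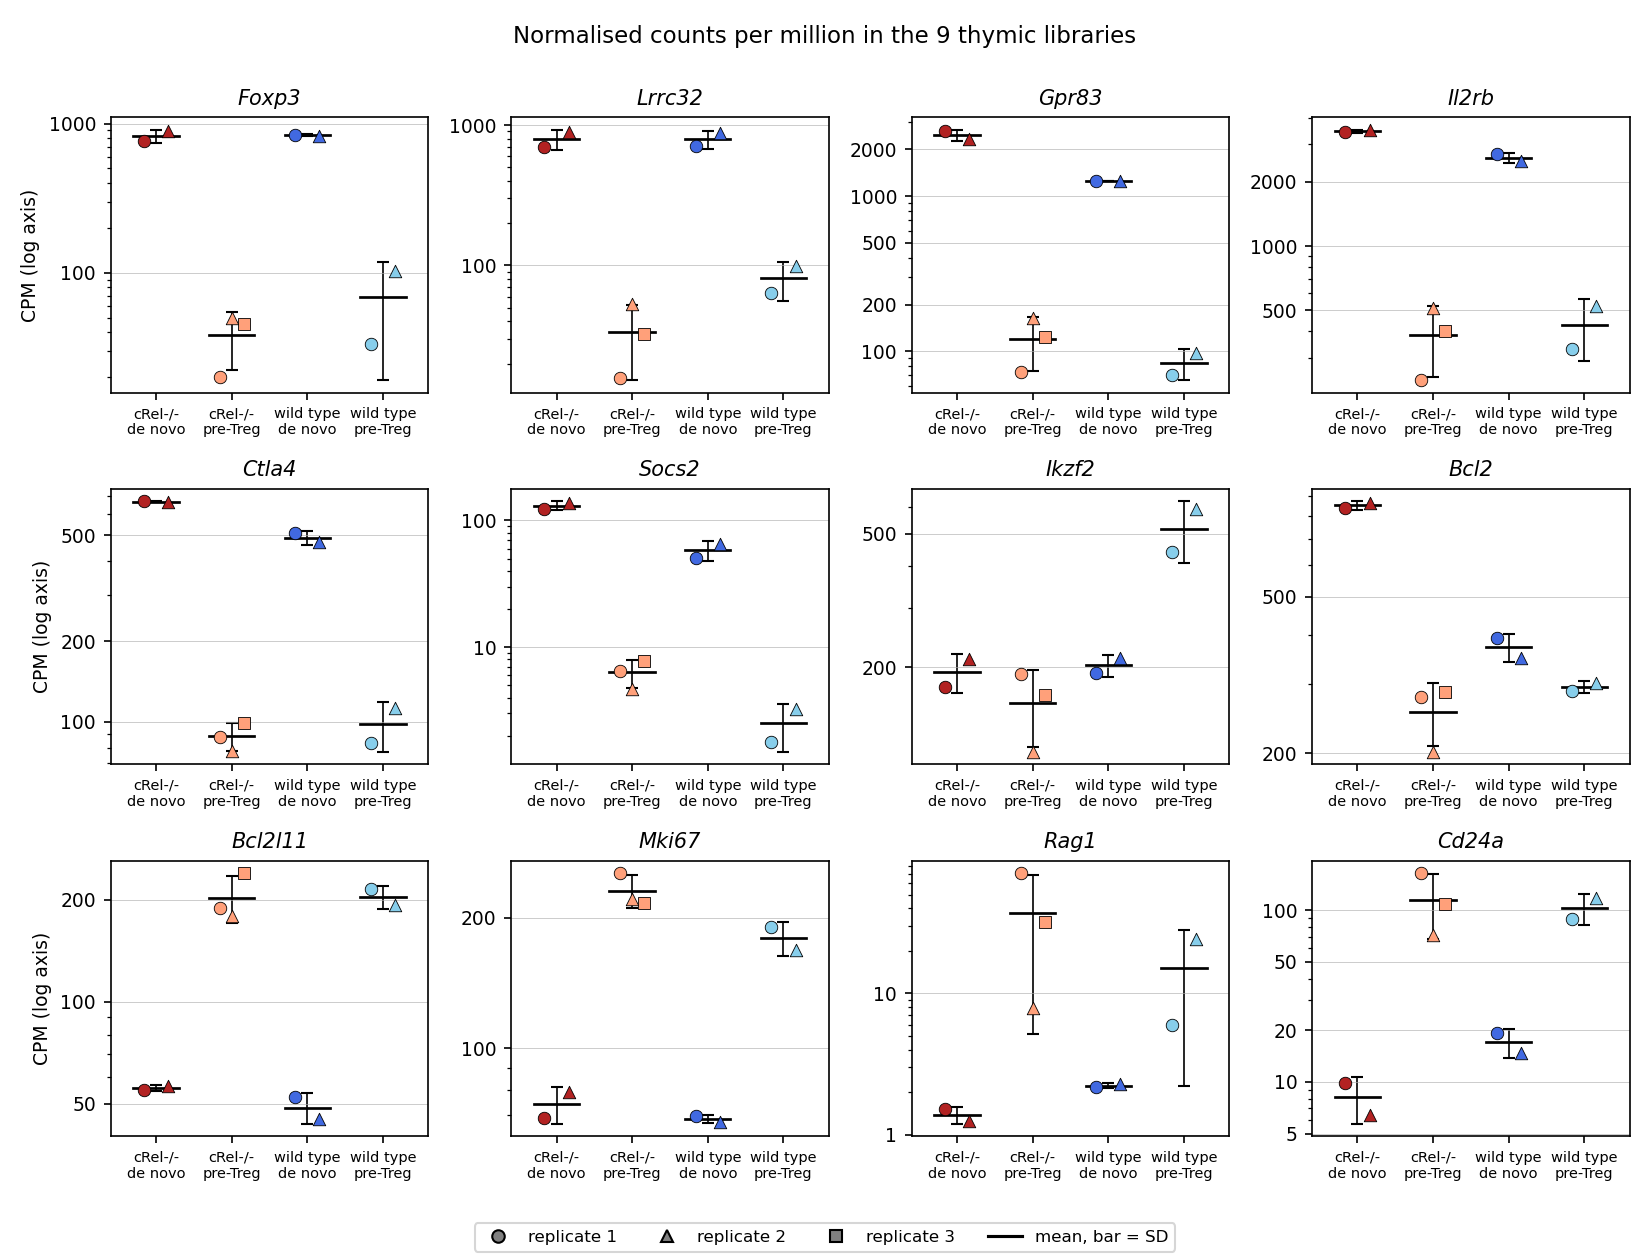
CPM (log axis) of 12 genes in the 9 thymic libraries; points are libraries, horizontal lines group means and bars the SD over 2 or 3 libraries. In the cRel-/- groups Foxp3, Lrrc32, Gpr83, Il2rb, Ctla4, Socs2 and Bcl2 lie higher in de novo Tregs, Bcl2l11, Mki67, Rag1 and Cd24a lie lower, and for Ikzf2 the stages overlap.

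Genes of the Treg signature rose with Foxp3. Of 39 tested, 28 rose and 3 fell, with a median log2 fold change of 2.12 against -0.03 over all genes. The counts were 29 and 4 without pre-Treg replicate 2, and in wild type 30 and 5. Lrrc32 encodes GARP, which holds latent TGF-β at the Treg surface. It stood at 702 and 887 CPM in cRel-/- de novo Tregs, against 15.9, 52.8 and 32.5 CPM in cRel-/- pre-Tregs (log2 fold change 4.55, SE 0.41, edgeR adjusted p = 6.16e-05). Ctla4, the inhibitory receptor that competes with CD28 for its ligands, had 670.2 and 668 CPM in de novo and 87.9, 77.7 and 99.1 CPM in pre-Treg libraries. Its libraries fell into 2 tight groups (2.92, SE 0.16, edgeR adjusted p = 6.84e-06).

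Gpr83, an orphan G protein-coupled receptor of Tregs, reached 2619 and 2322 CPM in de novo Tregs, against 73.2, 163 and 124 CPM in pre-Tregs (4.36, SE 0.29). Il10ra, the ligand-binding chain of the IL-10 receptor, rose by 2.27 (SE 0.13) and Ikzf4, encoding the Ikaros family factor Eos that works with Foxp3, by 2.12 (SE 0.18) on the log2 scale. Among the pre-Treg libraries, replicate 2 was the highest for Foxp3, Lrrc32, Gpr83 and Ikzf4 but the lowest for Ctla4 and Il10ra. The 3 members that fell, named after their values were seen, were Pde3b (-1.91), a phosphodiesterase that Foxp3 is known to repress, the chromatin organiser Satb1 (-0.91) and the costimulatory receptor gene Icos (-0.62). Without de novo replicate 2, 1 of the list fell. Ikzf2, which encodes Helios, was not called: it had 175 and 211 CPM in de novo and 191, 112 and 165 CPM in pre-Treg libraries (0.31, SE 0.22, edgeR adjusted p = 0.319), and the stages overlapped.

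The IL-2 receptor and the genes that IL-2 induces through STAT5 were higher in cRel-/- de novo Tregs. Of 24 such genes, 19 rose and 1 fell (median log2 fold change 1.35). The counts were 20 and 1 without pre-Treg replicate 2, and 16 and 0 in wild type. Il2rb, the receptor chain that signals for both IL-2 and IL-15, had 3416 and 3498 CPM in de novo Tregs, against 235, 513 and 399 CPM in pre-Tregs (3.18, SE 0.29, edgeR adjusted p = 6.83e-05). Il2ra, the chain that gives the receptor its high affinity (CD25), had 1348 and 1522 CPM in de novo and 306, 123 and 252 CPM in pre-Treg libraries (2.66, SE 0.36, edgeR adjusted p = 0.000676). The stages were apart for both genes, with pre-Treg replicate 2 the highest of its group for Il2rb and the lowest for Il2ra.

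Among members of this list that encode feedback inhibitors of cytokine signalling, Socs2 had 123 and 138 CPM in cRel-/- de novo and 6.50, 4.67 and 7.82 CPM in cRel-/- pre-Treg libraries, a 20.9-fold difference (log2 fold change 4.38, SE 0.25, edgeR adjusted p = 6.84e-06). Cish had 622 and 704 CPM in de novo Tregs, against 65.3, 148 and 87.3 CPM in pre-Tregs (2.72, SE 0.27). Socs3 had 102 and 96.7 CPM in de novo and a tight 18.6, 17.7 and 18.6 CPM in pre-Treg libraries (2.44, SE 0.15). Socs1, named after its value was seen, had 253 and 268 CPM in de novo Tregs and 51.0, 105 and 60.7 CPM in pre-Tregs (1.85, SE 0.27, edgeR adjusted p = 0.000982). The 1 member that fell was Gadd45b (-1.81), a stress-response gene named after its value was seen.

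Genes of the NF-κB system rose more often than they fell in the cRel-/- step. Of 33 subunits and regulators, 15 rose and 0 fell, with a median log2 fold change of 0.51. Without pre-Treg replicate 2, 21 rose and 2 fell, but without de novo replicate 1 or 2 only 6 or 3 rose, and 1 fell without pre-Treg replicate 1. In wild type 11 rose and 1 fell. Transcripts of Rel were still counted in every cRel-/- library, at 94.7 and 103 CPM in de novo Tregs, against 55.4, 52.8 and 65.8 CPM in pre-Tregs (0.77, SE 0.14, edgeR adjusted p = 0.00313, and 0.0511 without de novo replicate 2). Gene-level counts do not show which exons were read, so these values do not check the genotype.

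Traf1, an adaptor of TNF receptor signalling, had 385 and 404 CPM in cRel-/- de novo and 75.5, 90.5 and 115 CPM in cRel-/- pre-Treg libraries (2.07, SE 0.18, edgeR adjusted p = 4.59e-05). Nfkbiz, which encodes an atypical nuclear IκB protein, rose by 1.74 (SE 0.14). Birc3, an inhibitor of apoptosis that regulates the non-canonical branch, rose by 1.36 (SE 0.12). The subunit precursors Nfkb1 (0.61, SE 0.14, edgeR adjusted p = 0.00975) and Nfkb2 (0.78, SE 0.23, edgeR adjusted p = 0.0285) and the inhibitor Nfkbia (0.69, SE 0.17, edgeR adjusted p = 0.0136) rose less. These 3 calls were lost without either de novo library (edgeR adjusted p 0.0740 to 0.172), and that of Nfkb2 also without pre-Treg replicate 3 (edgeR adjusted p = 0.0708).

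The TNF receptors that mark Treg precursors did not move as 1 group. Tnfrsf18, which encodes GITR, had 1672 and 1551 CPM in cRel-/- de novo Tregs, against 229, 623 and 335 CPM in cRel-/- pre-Tregs (2.03, SE 0.32, edgeR adjusted p = 0.00154). Tnfrsf4, which encodes OX40, had 2381 and 2154 CPM in de novo and 358, 666 and 507 CPM in pre-Treg libraries (2.15, SE 0.22), and Tnfrsf25, encoding death receptor 3, rose by 2.40 (SE 0.31). For each of these, pre-Treg replicate 2 was the highest of its group and still below both de novo libraries. Tnfrsf9, which encodes 4-1BB, was level at 470.1 and 496 CPM in de novo and 461, 839.6 and 570.1 CPM in pre-Treg libraries, the stages overlapping (-0.37, SE 0.21, edgeR adjusted p = 0.221; 0.0363 without pre-Treg replicate 1). Of 15 receptors 4 rose and 2 fell, against 13.9% and 14.4% of all genes tested. The falls were Tnfrsf8 (-1.82) and Tnfrsf1a (-0.67), both named after their values were seen. Leaving out pre-Treg replicate 2, 6 rose and 3 fell; the number that fell was 1 without de novo replicate 1 or either wild-type de novo library, and 0 by edgeR without de novo replicate 2.

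Early TCR response genes were called in each direction about as often as all genes tested, of which 13.9% rose and 14.4% fell. Of 32, 5 rose and 6 fell (median log2 fold change -0.13); the counts were 8 and 10 without pre-Treg replicate 2, 3 and 3 without de novo replicate 1, 2 and 4 without de novo replicate 2, and 10 and 3 in wild type. Spry1, a feedback inhibitor of MAP kinase signalling, rose by 1.82 (SE 0.23), with 112 and 117 CPM in de novo Tregs and 23.1, 42.9 and 31.0 CPM in pre-Tregs. Tnfsf11, encoding the cytokine RANKL, fell by 1.61 (SE 0.16) and the ERK phosphatase gene Dusp6 fell by 1.03 (SE 0.16) on the log2 scale. Egr2, a transcription factor induced by TCR signals, rose by 0.76 (edgeR adjusted p = 0.0098; 0.0632 and 0.0880 without de novo replicates 1 and 2).

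Nr4a1, often read as a gauge of TCR signal strength, had 470.0 and 514 CPM in de novo and 405, 924 and 660.0 CPM in pre-Treg libraries, and the stages overlapped. It was not called (-0.43, SE 0.29, edgeR adjusted p = 0.288; 0.0312 without pre-Treg replicate 1). Cd5, a surface protein whose level follows self-reactivity, had 733 and 762 CPM in de novo and 615, 1319 and 822 CPM in pre-Treg libraries (edgeR adjusted p = 0.41), replicate 2 being the highest. Cd69, an activation marker that holds thymocytes in the thymus, had 269.8 and 291 CPM in de novo and 310.0, 172 and 279 CPM in pre-Treg libraries (edgeR adjusted p = 0.696). Neither was called in any of the fits tried, and both changed sign without replicate 2, to 0.04 for Cd5 and -0.09 for Cd69, from -0.30 and 0.15 with it.

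Survival genes were split, with Bcl2 and Bcl2l1 moving in opposite directions. Bcl2, the founding anti-apoptotic gene, had 837 and 866 CPM in cRel-/- de novo Tregs, against 278, 201 and 286 CPM in cRel-/- pre-Tregs (1.74, SE 0.16, edgeR adjusted p = 7.59e-05). Bcl2l1, which encodes the related Bcl-xL, had 32.7 and 36.4 CPM in de novo and 60.5, 67.6 and 68.1 CPM in pre-Treg libraries (-0.92, SE 0.13, edgeR adjusted p = 0.000949). The stages did not overlap for either gene. Bcl2l11, which encodes the death-promoting protein Bim, fell by 1.87 on the log2 scale (SE 0.17, edgeR adjusted p = 6.47e-05), with 54.8 and 56.3 CPM in de novo and 189.7, 179 and 239.8 CPM in pre-Treg libraries. Of 3 RefSeq promoters of Bcl2l1, that at chr2:152830668-152830967 (GRCm38.p6, minus strand) is shown because it holds the κB consensus, in capitals, beginning 242 bases before the annotated start.
Bcl2l1 promoter: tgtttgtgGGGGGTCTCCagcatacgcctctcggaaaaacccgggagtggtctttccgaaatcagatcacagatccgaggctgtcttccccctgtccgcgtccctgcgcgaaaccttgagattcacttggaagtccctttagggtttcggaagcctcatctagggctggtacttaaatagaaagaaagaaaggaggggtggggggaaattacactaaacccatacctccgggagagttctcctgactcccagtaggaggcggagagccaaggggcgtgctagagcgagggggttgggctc
The other Bcl2l1 promoters and those of Bcl2 and of Nkg7, a gene described below, had 0 matches. Ccl5, Rcn1 and S1pr1 were also looked up and had no promoter entry. A match describes letters and not a bound site. Mcl1, another anti-apoptotic gene, was not called (0.35, SE 0.14, edgeR adjusted p = 0.0921). Casp8, the initiator caspase of death receptors, rose by 1.69 (SE 0.14), and Birc5, which encodes survivin and is also a mitotic gene, fell by 1.43 (SE 0.19). Of 26 apoptosis and survival genes 5 rose and 7 fell, against 13.9% and 14.4% of all genes tested. Leaving out pre-Treg replicate 2 gave counts of 8 and 9, against 25.9% and 26.5% of all genes. Without de novo replicate 1, de novo replicate 2 or pre-Treg replicate 3, 3, 3 and 3 rose, and 4 fell without de novo replicate 1.

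Genes of thymic exit and lymphoid homing rose. Of 28 resting and homing genes, 17 rose and 3 fell (median log2 fold change 0.96), against 18 and 3 without pre-Treg replicate 2 and 12 and 3 in wild type. S1pr1, the sphingosine 1-phosphate receptor needed to leave the thymus, had 999.9 and 1000.1 CPM in cRel-/- de novo Tregs, against 131, 217 and 153 CPM in cRel-/- pre-Tregs (2.58, SE 0.20, edgeR adjusted p = 3.03e-05). Klf2, the transcription factor that drives S1pr1, had 870.0 and 887 CPM in de novo and 157, 269.9 and 153 CPM in pre-Treg libraries (2.18, SE 0.22). De novo libraries agreed closely for both genes, and every pre-Treg library lay below them.

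Ccr7, the receptor that guides T cells into the thymic medulla and lymph nodes, had 2166 and 1995 CPM in de novo and 792, 1448 and 923 CPM in pre-Treg libraries (0.98, edgeR adjusted p = 0.00967; 0.0783 and 0.0560 without de novo replicates 1 and 2). The integrin gene Itga6 rose by 2.37 (SE 0.18) and Ms4a6b, a membrane protein gene of resting T cells, by 1.85 (SE 0.15). In the opposite direction, Ccr9, the receptor for the thymic and gut chemokine CCL25, had 60.7 and 37.6 CPM in de novo and 352, 290.1 and 334 CPM in pre-Treg libraries (-2.73, SE 0.22). The other members that fell were Tcf7 (-1.60) and Satb1 (-0.91), transcription factor and chromatin genes of immature T cells, named after their values were seen.

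Genes of immature thymocytes fell. Of 29, 16 fell and 3 rose (median log2 fold change -0.97). Without pre-Treg replicate 2, 21 fell, and without de novo replicate 1 or 2, 10 or 6 fell. In wild type 15 fell and 1 rose. Cd24a, the heat-stable antigen lost as thymocytes mature, had 9.90 and 6.43 CPM in cRel-/- de novo Tregs, against 165, 71.8 and 109 CPM in cRel-/- pre-Tregs (-3.82, SE 0.38, edgeR adjusted p = 0.000109). Rag1, a subunit of the recombinase that assembles antigen receptor genes, had 1.51 and 1.25 CPM in de novo and 70.9, 7.94 and 32.1 CPM in pre-Treg libraries (-4.73, SE 0.94, edgeR adjusted p = 0.0051). Pre-Treg libraries spread widely for Rag1, with replicate 1 high and replicate 2 low, and none overlapped the de novo libraries.

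The partner recombinase gene Rag2 fell by 3.88 on the log2 scale (SE 0.84). Without a de novo library the calls of Rag1 and Rag2 were lost (edgeR adjusted p 0.0516 to 0.0804). Itm2a, a membrane protein gene of positively selected thymocytes, fell by 1.32 (SE 0.16). The members that rose were Cd2, the T cell adhesion receptor gene (0.81), the transcription factor gene Gata3 (0.87) and Tox (0.43), a nuclear factor of CD4 lineage development whose call was lost without any 1 of 8 libraries and kept only without pre-Treg replicate 2 (edgeR adjusted p 0.0417 with all libraries, 0.0650 to 0.224 without the 8 and 0.00401 without replicate 2).

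Cell cycle genes fell almost without exception. Of 34 proliferation genes, 33 fell and 0 rose (median log2 fold change -1.38). The exception was the replication helicase gene Mcm7 (-0.34), named after its value was seen, which was not called. Mki67, the classical marker of cycling cells, had 69.1 and 79.2 CPM in cRel-/- de novo Tregs, against 253, 221 and 216 CPM in cRel-/- pre-Tregs (-1.64, SE 0.15, edgeR adjusted p = 6.26e-05). Cdk1, the kinase that starts mitosis, had 29.0 and 28.2 CPM in de novo and 102, 102 and 91.4 CPM in pre-Treg libraries (-1.78, SE 0.16). Cdc6, which licenses replication origins, fell by 1.57 and Rrm1, a subunit of ribonucleotide reductase, fell by 1.43. In these bulk libraries, fewer cycling cells and less of each transcript per cell cannot be told apart. The number that fell was 33 without pre-Treg replicate 2, 21 without de novo replicate 1 and 23 in wild type.

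For growth and energy genes the counts differed between lists and changed with the libraries used, as did those of all genes tested. Over all genes, 13.9% rose and 14.4% fell, and 25.9% and 26.5% without pre-Treg replicate 2. A change in the counts below is therefore not particular to these lists. Of 24 glycolysis genes 3 rose and 3 fell (12 and 4 without pre-Treg replicate 2), among them Gapdh, which fell by 1.08, and the glucose transporter gene Slc2a1, which rose by 1.19. Of 26 ribosome biogenesis genes 1 rose and 4 fell, and 5 and 8 without pre-Treg replicate 2. Without either de novo library 0 rose and 0 fell in that list by edgeR, and 0 rose without pre-Treg replicate 3 or either wild-type de novo library. In the glycolysis list 1 fell without de novo replicate 2 and 5 without pre-Treg replicate 1. Cytosolic ribosomal protein genes fell for 16 of 84 and rose for 0, but 24 rose and 21 fell without pre-Treg replicate 2. These genes took 0.805% and 0.769% of counts in de novo libraries and 0.794%, 1.20% and 0.790% in pre-Treg libraries, replicate 2 being the high one. Mitochondrially encoded genes fell for 6 of 11, with 0.294% and 0.298% of counts in de novo and 0.810%, 0.388% and 0.508% in pre-Treg libraries. Of 80 nuclear respiratory chain genes 7 fell and 0 rose, against 17 and 26 without pre-Treg replicate 2. Without de novo replicate 1 the numbers that fell were 3, 0 and 0 in these 3 lists, and 0, 0 and 1 without de novo replicate 2. Without either wild-type de novo library 3 mitochondrial and 3 nuclear respiratory chain genes fell.

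**Figure D3:**
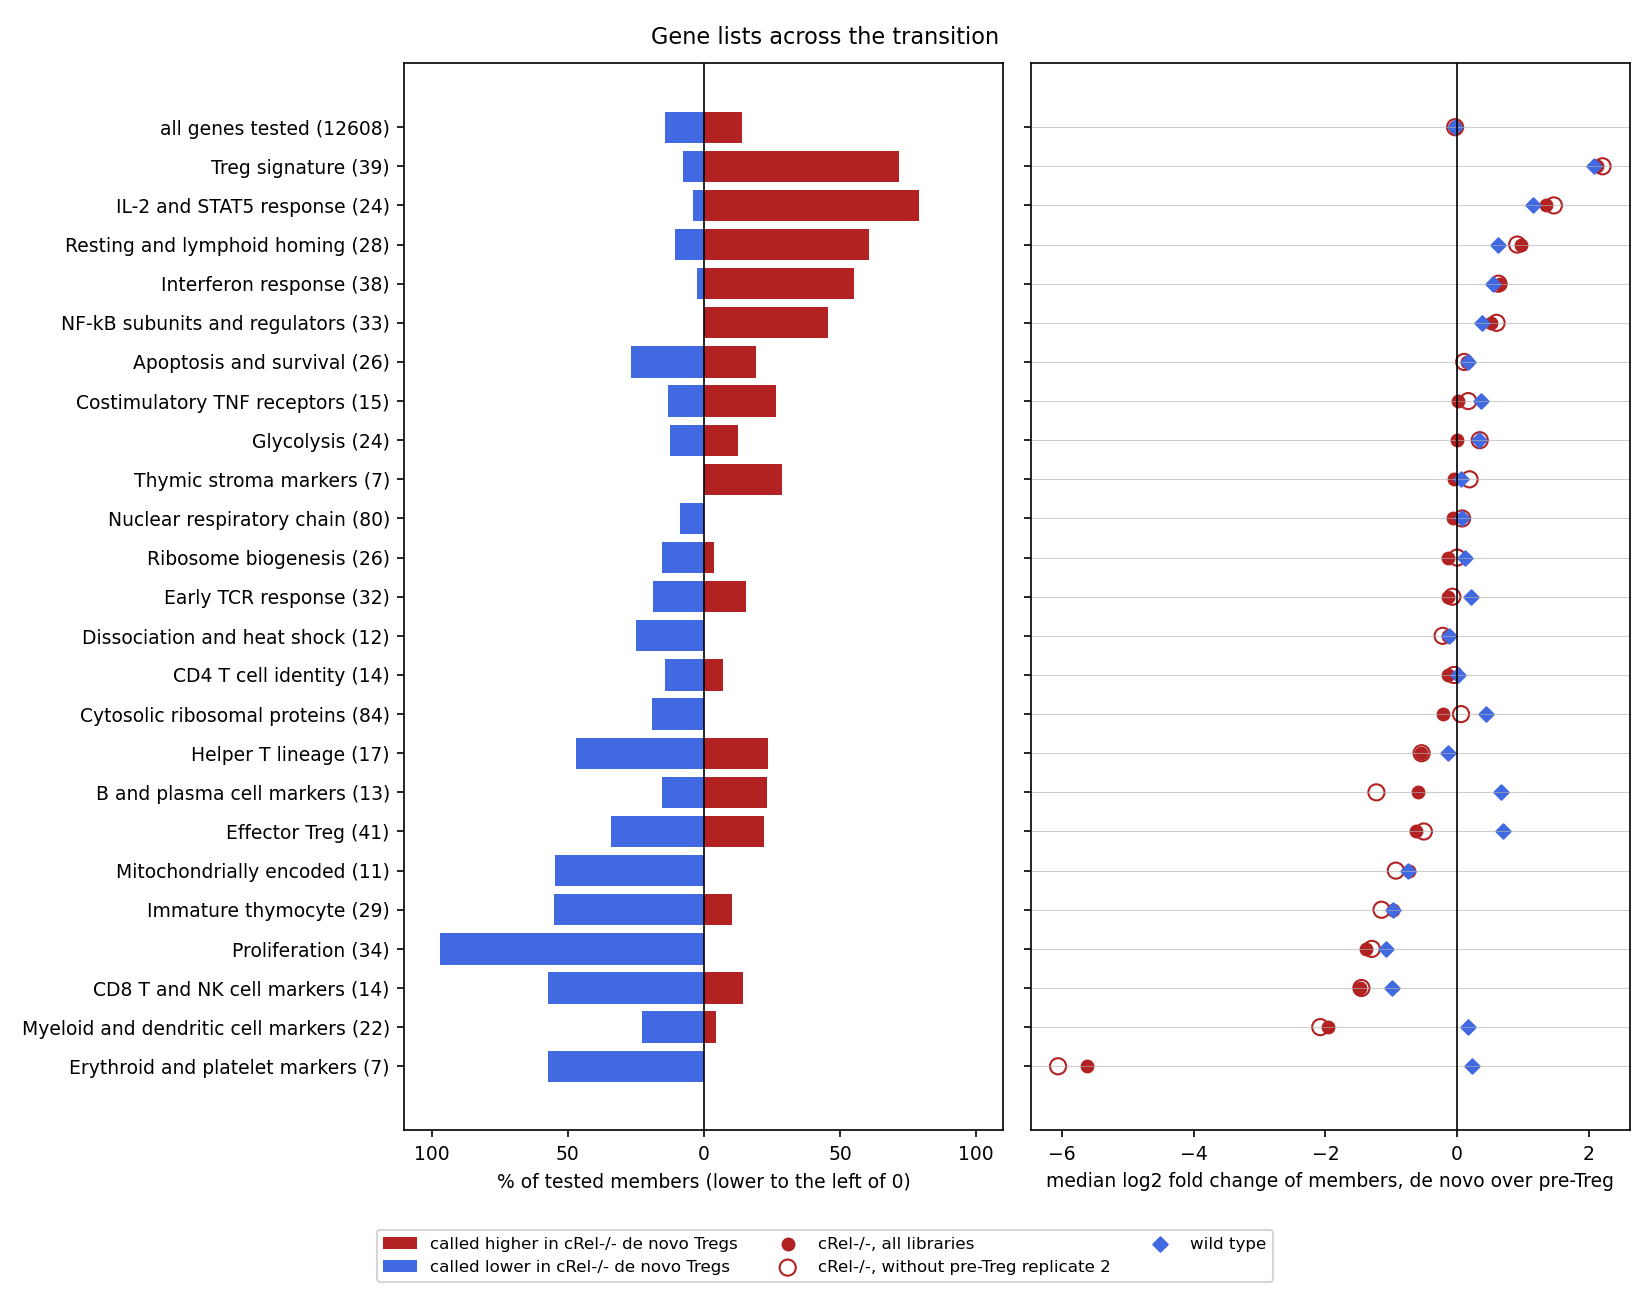
Left, share of each list's tested members (number in brackets) called higher (red, right) or lower (blue, left) in cRel-/- de novo Tregs; right, median log2 fold change of the members in cRel-/- mice with all libraries, in cRel-/- mice without pre-Treg replicate 2, and in wild type. All genes tested stand at the top with 13.9% higher and 14.4% lower; the Treg signature has the highest median (2.12), proliferation has 33 of 34 members lower, and the cRel-/- median of the erythroid list rests on genes at or under the floor of detection in de novo libraries.

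Interferon-inducible genes were higher in cRel-/- de novo Tregs. Of 38, 21 rose and 1 fell (median log2 fold change 0.65), against 25 and 3 without pre-Treg replicate 2, 11 and 12 higher without de novo replicate 1 or 2, and 17 higher and 2 lower in wild type. Samhd1, which degrades nucleotides needed by viruses, had 1322 and 1204 CPM in de novo and 257, 226 and 305 CPM in pre-Treg libraries (2.27, SE 0.15, edgeR adjusted p = 1.08e-05). Gbp3 (2.59, SE 0.15) and Gbp7 (1.66, SE 0.14), guanylate-binding proteins of host defence, rose as well. Ifitm3, an inhibitor of viral entry, had 86.8 and 87.0 CPM in de novo Tregs, against 16.6, 19.1 and 24.9 CPM in pre-Tregs, with no overlap (2.10, SE 0.19). Its relative Ifitm1 (-2.21), named after its value was seen, was the 1 member that fell, and its call was lost in 7 of the 9 fits that left out 1 library.

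Genes of effector Tregs, the activated tissue-homing state, went both ways, and which direction had more calls depended on the libraries. Of 41, 14 fell and 9 rose (median log2 fold change -0.62), against 14.4% and 13.9% of all genes tested. Without pre-Treg replicate 2, 16 fell and 10 rose, against 26.5% and 25.9% of all genes. In wild type 4 fell and 16 rose, with a median of 0.69. Without de novo replicate 1, 8 fell and 6 rose, and without de novo replicate 2, 4 fell and 6 rose. Ccr4, a chemokine receptor of activated Tregs, had 8.30 and 3.68 CPM in cRel-/- de novo Tregs, against 31.6, 26.8 and 34.0 CPM in cRel-/- pre-Tregs (-2.36, SE 0.33, edgeR adjusted p = 0.000777). Id2, an inhibitor of E protein transcription factors, had 41.6 and 34.2 CPM in de novo and 152, 114 and 101 CPM in pre-Treg libraries (-1.69, SE 0.23). Anxa1, the annexin of inflammation control, was low in both, at 0.519 and 0.0809 CPM in de novo and 8.13, 5.04 and 7.37 CPM in pre-Treg libraries (-4.50, SE 0.63). Itgb8, the integrin chain with which Tregs activate TGF-β, rose by 2.55 (SE 0.32).

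Of 17 helper T lineage genes, 4 rose and 8 fell, against 13.9% and 14.4% of all genes tested. Without pre-Treg replicate 2, 4 rose and 9 fell, against 25.9% and 26.5% of all genes. In wild type 4 rose and 4 fell. Fewer fell in cRel-/- without de novo replicate 1 or 2. Il21, the cytokine of follicular helper cells, had 0.778 and 0.728 CPM in cRel-/- de novo and 12.2, 6.64 and 7.65 CPM in cRel-/- pre-Treg libraries (-3.54, SE 0.38, edgeR adjusted p = 0.000176). The signal transducer genes Stat6 (1.08, SE 0.14) and Stat4 (1.19, SE 0.21), which act downstream of IL-4 and IL-12, and Gata3 rose.

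The largest rises beside Foxp3, Lrrc32, Gpr83 and Socs2 included genes of secreted and surface proteins. Ntn4, a secreted netrin, had 64.8 and 70.1 CPM in cRel-/- de novo Tregs, against 0.697, 0.954 and 1.66 CPM in cRel-/- pre-Tregs (5.94, SE 0.37, edgeR adjusted p = 8.33e-06). Ecm1, a secreted matrix protein gene of the Treg signature, had 2805 and 2685 CPM in de novo and 79.3, 202 and 152 CPM in pre-Treg libraries (4.25, SE 0.32). Both were separated from the pre-Treg libraries by more than an order of magnitude. Hopx, a homeodomain protein gene and also of that list, rose by 4.17, the Ras-interacting protein gene Rasip1 by 4.73, Prkar1b, a regulatory subunit of protein kinase A, by 4.47, the cadherin-related gene Cdhr3 by 5.38, Ltbp1, which binds latent TGF-β, by 4.67, Fam19a3 by 5.34 and C1qtnf6 by 4.13 (SE 0.25 to 0.65 over these genes). Gbp2b had 11.8 and 10.4 CPM in de novo libraries and 0, 0 and 0.228 CPM in pre-Treg libraries, where it was at or near 0 counts.

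The largest falls, beside Rag1, Rag2 and Cd24a, were in genes of several functions. Hes1, the target of Notch signalling, had 1.21 and 0.364 CPM in cRel-/- de novo and 30.1, 3.88 and 15.6 CPM in cRel-/- pre-Treg libraries (-4.38, SE 0.93, edgeR adjusted p = 0.00712; 0.0804 without de novo replicate 2). Xcl1, a chemokine for cross-presenting dendritic cells, had 1.77 and 1.86 CPM in de novo and 14.7, 58.3 and 25.6 CPM in pre-Treg libraries (-4.18, SE 0.56). Nrgn, encoding the calmodulin-binding protein neurogranin, had 4.37 and 2.91 CPM in de novo Tregs, against 44.4, 78.4 and 41.9 CPM in pre-Tregs (-3.92, SE 0.34). For Hes1 pre-Treg replicate 2 was the lowest of its group, and for Xcl1 and Nrgn the highest. Marcks, a membrane-bound substrate of protein kinase C, fell by 3.61, the actin-binding protein gene Nebl fell by 3.59 and Epb41l4b fell by 4.11. Wdfy4 (-4.07), the desaturase gene Fads2 (-3.58), Nwd1 (-3.53), the lectin receptor gene Clec12a (-3.53) and the sugar transporter gene Slc5a9 (-3.50) also fell. These 5 calls were lost without either de novo library (edgeR adjusted p 0.0552 to 0.206), and that of Nwd1 also without pre-Treg replicate 1 or 3 or either wild-type de novo library (edgeR adjusted p 0.0512 to 0.0776).

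Markers of other cells were read in the same libraries, where 13.9% of all genes tested rose and 14.4% fell (25.9% and 26.5% without pre-Treg replicate 2). CD4 T cell identity genes summed to 15199 and 14384 CPM in cRel-/- de novo and 14008, 15424 and 14588 CPM in cRel-/- pre-Treg libraries, and Cd8a, which mature CD4 cells lack, ranged from 1.58 to 6.34 CPM over these libraries. Erythroid and platelet markers summed to 5.40 and 4.86 CPM in de novo and 24.2, 16.2 and 53.6 CPM in pre-Treg libraries (4 of 7 lower, 2 without pre-Treg replicate 1, and 0 by edgeR without pre-Treg replicate 3 or either de novo library), and the erythroid gene Slc4a1 and the platelet gene Pf4 were too low to be tested. Myeloid and dendritic markers, a list that includes Cd74 and Bst2, which T cells also express, summed to 737 and 697 CPM in de novo and 560.2, 599 and 587 CPM in pre-Treg libraries. Of 22, 1 rose and 5 fell (2 and 12 without pre-Treg replicate 2, 0 and 2 without either de novo library), among them the low-level genes Fcer1g (-3.13) and Tyrobp (-2.62), adaptors of innate receptors. Lyz1 and Cd14 were too low to be tested.

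CD8 T and NK cell markers had 2 higher and 8 lower of 14, with a summed level of 706 and 712 CPM in de novo and 337, 454 and 335 CPM in pre-Treg libraries, and 4 lower without de novo replicate 2. Klrd1 (-3.76) and Klrk1 (-2.71), genes of NK receptors, were among the 8 that fell, while 2 other members rose. The summed level of the list was nonetheless higher in both de novo libraries than in any pre-Treg library. Its sum and its count of calls thus went opposite ways. Each marker list is to be read beside all genes tested, of which 13.9% rose and 14.4% fell. Without pre-Treg replicate 2 those shares were 25.9% and 26.5%. B and plasma cell markers had 3 higher and 2 lower of 13, summing to 508 and 513 CPM in de novo and 306, 209 and 269 CPM in pre-Treg libraries, most of it Xbp1, which T cells also express. Thymic stroma markers had 2 higher of 7, at 348 and 350.4 CPM in de novo and 229, 228 and 240.5 CPM in pre-Treg libraries, most of it Pecam1. Dissociation and heat shock genes had 3 lower of 12 (1 higher and 5 lower without pre-Treg replicate 2). The counts of these last 3 lists were 0 or 1 in each direction by edgeR without either cRel-/- de novo library, and those of the B cell and heat shock lists dropped without other libraries too. The part of these other cells in the falls of effector, helper and immature thymocyte genes was not tested.

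In wild type, 1445 genes (11.5%) rose and 1571 (12.5%) fell across the same step, and 1953 genes were called in the same direction in both genotypes. The shared calls are 54.8% of the genes called without c-Rel and 64.8% of those called in wild type, while 8 genes were called in opposite directions. Of the genes called without c-Rel, 94.8% had the same sign in wild type, and the log2 fold changes correlated across genes at r = 0.623, a description over genes whose libraries share the 2 count tables. Without any 1 of the wild-type libraries the wild-type calls numbered 512 to 873, and 5927 without cRel-/- pre-Treg replicate 2, since the fit shares 1 spread. Foxp3, Lrrc32, Gpr83, Il2rb, Ctla4 and Socs2 rose in wild type by 3.62, 3.29, 3.90, 2.61, 2.33 and 4.52 on the log2 scale, and Mki67 and Cd24a fell by 1.39 and by 2.59.

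**Figure D4:**
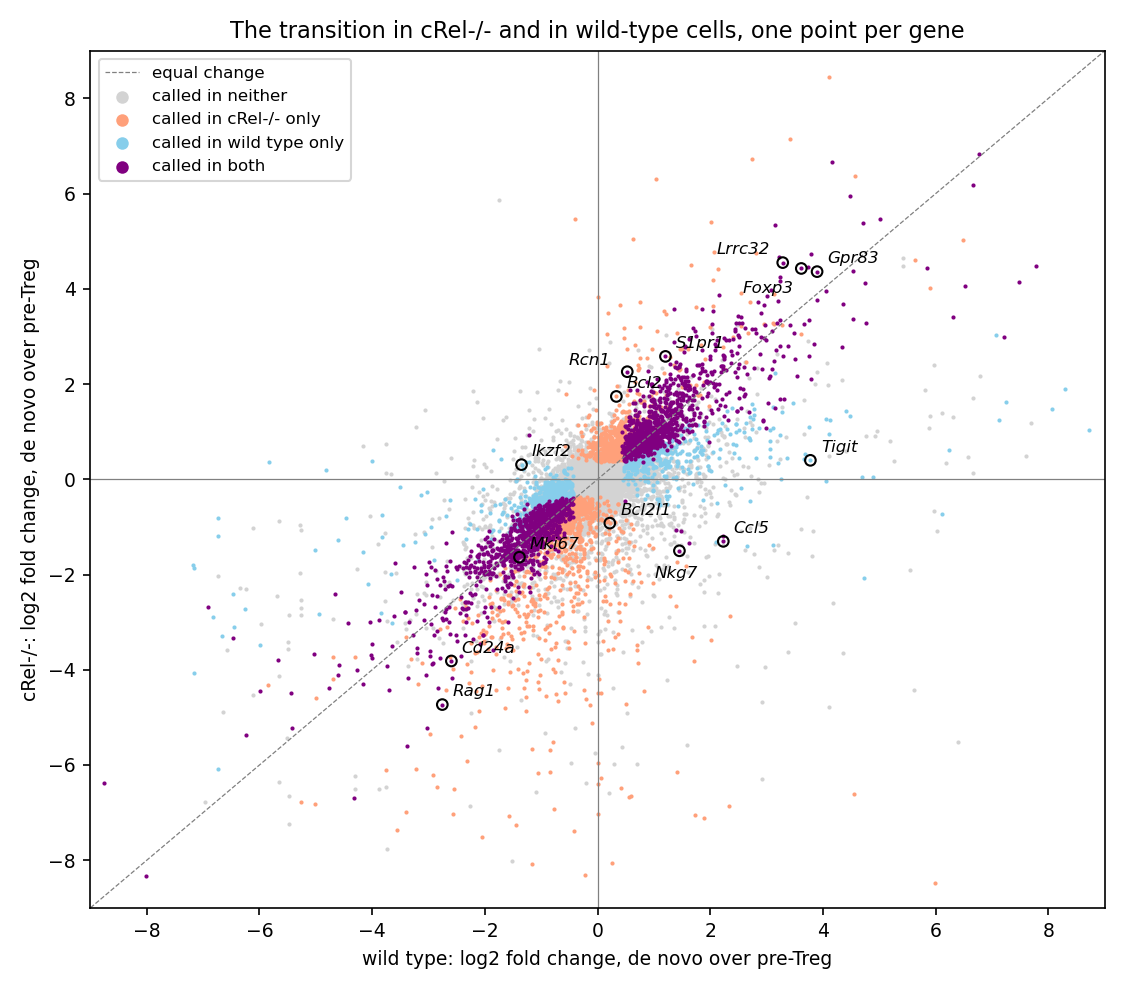
Log2 fold change of de novo over pre-Treg in cRel-/- (vertical axis) against wild type (horizontal axis) for the genes tested; colours show in which genotype a gene was called, the dashed line is equal change, and 4 genes outside ±9 are not drawn. Most called genes share a sign; Nkg7 and Ccl5 lie in the quadrant of a fall in cRel-/- and a rise in wild type.

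The difference between the transitions was tested gene by gene as an interaction of stage and genotype. With all libraries 3 of 12608 genes (0.0238%) differed, while 1024 had an unadjusted p under 0.05. DESeq2 called 105 and limma-voom 716, and edgeR called 0 to 14 genes when any library other than pre-Treg replicate 2 was left out. Nkg7, a granule protein gene of cytotoxic and effector T cells, fell without c-Rel and rose in wild type: it had 25.1 and 23.0 CPM in cRel-/- de novo and 77.9, 64.1 and 62.3 CPM in cRel-/- pre-Treg libraries, and 177 and 172 CPM in wild-type de novo and 48.1 and 79.6 CPM in wild-type pre-Treg libraries. The log2 fold changes were -1.50 (SE 0.21) in cRel-/- and 1.45 (SE 0.22) in wild type, a difference of -2.95 (SE 0.31, edgeR adjusted p = 0.0241). The pre-Treg groups overlapped between genotypes and the de novo groups did not.

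Ccl5, a chemokine of effector T cells, had the same pattern at low level, with 1.77 and 1.90 CPM in cRel-/- de novo and 4.41, 5.45 and 3.71 CPM in cRel-/- pre-Treg libraries, and 13.1 and 17.2 CPM in wild-type de novo and 2.76 and 3.68 CPM in wild-type pre-Treg libraries (difference -3.53, SE 0.44, edgeR adjusted p = 0.0347). The cRel-/- de novo values rest on 41 and 47 counts. The fall of Ccl5 in cRel-/- was lost without de novo replicate 1 or 2 (edgeR adjusted p 0.0910 and 0.0779). Rcn1, encoding a calcium-binding protein of the endoplasmic reticulum, rose in both genotypes and further without c-Rel. It had 181 and 198 CPM in cRel-/- de novo and 41.8, 37.0 and 39.9 CPM in cRel-/- pre-Treg libraries, and 70.6 and 82.3 CPM in wild-type de novo and 55.3 and 50.9 CPM in wild-type pre-Treg libraries (difference 1.73, SE 0.20, edgeR adjusted p = 0.0346). The Nkg7 call was lost in 6 of the 9 fits that left out 1 library, and those of Ccl5 and Rcn1 in 7, with edgeR adjusted p up to 0.380.

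**Figure D5:**
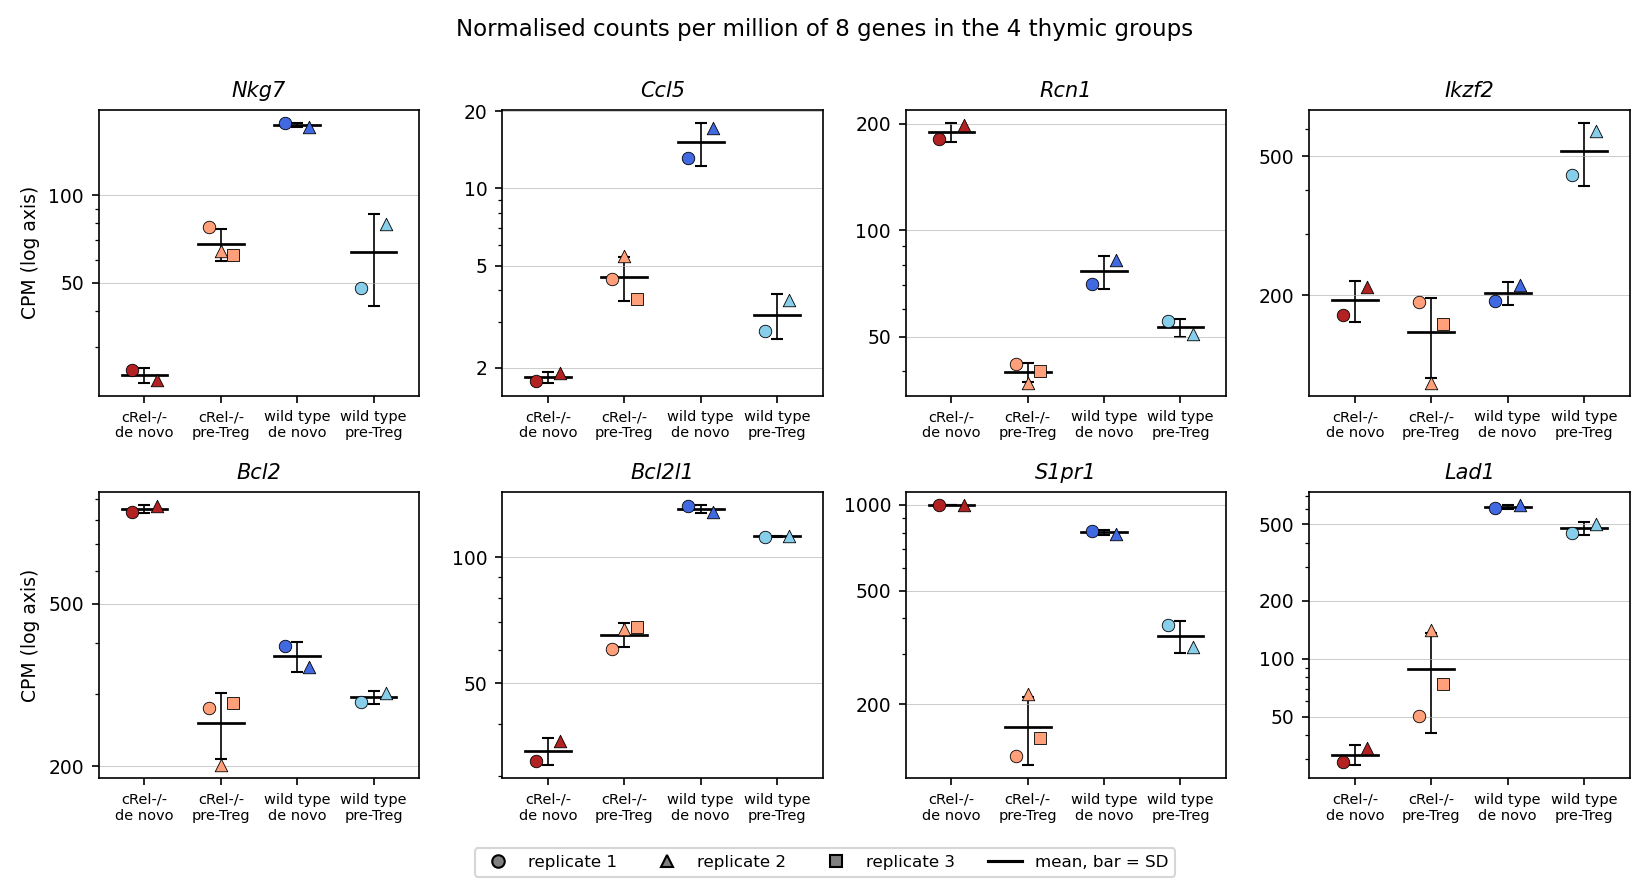
CPM (log axis) of 8 genes in the 9 thymic libraries; points are libraries, horizontal lines group means and bars the SD over 2 or 3 libraries. Nkg7 and Ccl5 lie lower in cRel-/- de novo than in cRel-/- pre-Treg libraries and higher in wild-type de novo than in wild-type pre-Treg libraries; Ikzf2 falls in wild type and overlaps between stages in cRel-/-.

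Without pre-Treg replicate 2, 74 of 12351 genes (0.599%) differed between the transitions, 30 upward and 44 downward. Bcl2 was among them. It had 393 and 349.5 CPM in wild-type de novo and 287 and 302 CPM in wild-type pre-Treg libraries and was not called there (0.33, edgeR adjusted p = 0.186). The log2 fold change in cRel-/- minus that in wild type was 1.22 without replicate 2 (SE 0.15, edgeR adjusted p = 0.00524), and 1.41 and not called with all libraries (SE 0.24, edgeR adjusted p = 0.162). Bcl2l1 had 133 and 128 CPM in wild-type de novo and 112 and 112 CPM in wild-type pre-Treg libraries, all above the cRel-/- values, and the difference was -1.14 (edgeR adjusted p = 0.162) and -1.15 (edgeR adjusted p = 0.00986) without replicate 2. Ikzf2 fell in wild type, with 192 and 214 CPM in de novo and 442 and 594 CPM in pre-Treg libraries (-1.35, SE 0.25, edgeR adjusted p = 0.00564), and the difference was 1.43 without replicate 2 (edgeR adjusted p = 0.0183), and 1.66 and not called with it (edgeR adjusted p = 0.219).

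S1pr1 had 814 and 789 CPM in wild-type de novo and 379 and 317 CPM in wild-type pre-Treg libraries, the pre-Treg values lying above every cRel-/- pre-Treg value (difference 1.38, edgeR adjusted p = 0.243; 1.57 and 0.00194 without replicate 2). Cish and Klf2 differed by 1.00 and 0.77 without replicate 2 (edgeR adjusted p = 0.0401 and 0.0487) and were not called with it (0.687 and 0.712). Lad1, a basement membrane protein gene, had 29.1 and 34.4 CPM in cRel-/- de novo and 50.3, 142 and 74.1 CPM in cRel-/- pre-Treg libraries, and 607 and 626 CPM in wild-type de novo and 451 and 504 CPM in wild-type pre-Treg libraries. All its cRel-/- values lay below all its wild-type values, and the difference was -1.37 without replicate 2 (edgeR adjusted p = 0.021), and -1.85 and not called with it (edgeR adjusted p = 0.361). Wnt3, a Wnt ligand, had 1.47 and 2.31 CPM in cRel-/- de novo and 0.929, 0.545 and 0.514 CPM in cRel-/- pre-Treg libraries, and 46.3 and 40.1 CPM in wild-type de novo and 5.68 and 12.2 CPM in wild-type pre-Treg libraries. It rose by 1.53 without c-Rel (edgeR adjusted p = 0.021, and 0.0678 without pre-Treg replicate 3). Without de novo replicate 2 the value was 1.17 and the call was lost. In wild type Wnt3 rose by 2.27 (edgeR adjusted p = 0.00355). The difference between its transitions was not called, at -0.73 (edgeR adjusted p = 0.735), and -0.91 without pre-Treg replicate 2 (edgeR adjusted p = 0.58). Rel itself was not called in wild type, at 105 and 102 CPM in de novo and 107 and 101 CPM in pre-Treg libraries (edgeR adjusted p = 0.992), and the difference between the transitions was not called (edgeR adjusted p = 0.361, and 0.1 without replicate 2).

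In the effector Treg list the medians of the genotypes lay on opposite sides of 0, as they also did in some of the other lists plotted. Its members had a median difference of -1.02, against 0.01 over all genes tested. Other lists had negative medians too, such as -1.73 for myeloid and dendritic markers and -0.64 for cytosolic ribosomal protein genes. With all libraries 2 of 41 effector members differed downward and 0 upward, and 8 and 0 without pre-Treg replicate 2. The 2 are Nkg7 and Ccl5, described above. Over all genes tested 2 differed downward, and 44 without pre-Treg replicate 2. Fgl2, a secreted suppressor of Tregs, had 3.37 and 4.13 CPM in cRel-/- de novo and 10.3, 9.61 and 5.71 CPM in cRel-/- pre-Treg libraries, and 18.8 and 22.5 CPM in wild-type de novo and 5.53 and 3.31 CPM in wild-type pre-Treg libraries (difference without replicate 2 -3.36, edgeR adjusted p = 0.00976; 0.088 with it). Tigit, an inhibitory receptor of effector Tregs, had 3.63 and 2.10 CPM in cRel-/- de novo and 1.63, 2.04 and 2.86 CPM in cRel-/- pre-Treg libraries, and 14.5 and 16.8 CPM in wild-type de novo and 1.12 and 1.15 CPM in wild-type pre-Treg libraries (difference without replicate 2 -3.46, edgeR adjusted p = 0.0149; 0.143 with it). The cRel-/- stages overlapped for Tigit, and the wild-type stages did not. Both genes were chosen after their values were seen.

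Others chosen after their values were seen were called by edgeR without pre-Treg replicate 2 and not with all libraries, upward for Wnt10a (2.28, edgeR adjusted p = 0.0163), a Wnt ligand, and Ncoa7 (1.28, edgeR adjusted p = 0.00524), a nuclear receptor coactivator, and downward for Scin (-4.69, edgeR adjusted p = 0.00524), which encodes an actin-severing protein. Scin had 3.37 and 2.35 CPM in cRel-/- de novo and 54.7, 7.02 and 34.0 CPM in cRel-/- pre-Treg libraries, and 22.3 and 18.6 CPM in wild-type de novo and 6.42 and 18.9 CPM in wild-type pre-Treg libraries, and its pre-Treg replicate 2 value was the lowest of its group. Junb (-2.68, edgeR adjusted p = 0.0307), an AP-1 subunit gene induced by activation and by cell handling, differed downward as well, rising in wild type (2.12) while its stages overlapped in cRel-/-. It had 353 and 369 CPM in cRel-/- de novo and 295, 489 and 751 CPM in cRel-/- pre-Treg libraries. In wild type it had 703 and 400 CPM in de novo and 129 and 125 CPM in pre-Treg libraries. All its cRel-/- pre-Treg values thus lay above both wild-type pre-Treg values.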

How the data were processed

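RNA was sequenced from sorted thymic CD4 cells. The values are raw counts of reads per gene that the authors deposited, with no normalization, in 1 table for pre-Tregs (47729 genes) and 1 for de novo Tregs (22048 protein-coding genes). Build GRCm38 and the tools STAR 2.5.2, featureCounts, Subread 1.5.2, Picard 2.9.0, FastQC, MultiQC and limma are listed in the submitters' processing notes. No source used here states the annotation release or whether strand was used, so overlapping and antisense genes, and close paralogs such as the globins and guanylate-binding proteins, may share reads. Depth was 13656304 to 29866696 counts per thymic library. For genes with few counts, counting error can exceed the spread between 2 libraries. Of pre-Treg counts 95.2% to 96.4% fell on the 22048 shared genes.

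Sample titles gave the groups and the replicate numbers. In R 4.3.3 with edgeR 4.0.16, counts of the 9 thymic libraries were filtered (filterByExpr, minimum count 10, minimum total 15), normalised by TMM and fitted with 4 group means; the quasi-likelihood test gave each transition and their difference (interaction), adjusted by Benjamini-Hochberg over 12608 genes. The fit leaves 5 residual degrees of freedom. Lists are described by counts and medians, with no test.

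The members, lists and fixed genes were chosen with earlier results of these data known. Named are the fixed genes, up to 14 called rises and 14 called falls with the largest fold change (at least 10 CPM in the higher group, no overlap between stages, call kept without pre-Treg replicate 2), up to 12 called genes per direction for the interaction, and up to 4 called members of each list by p. The text gives a selection of the list members. The text says so where a gene was picked outside this rule, from its values. Alternatives covered scaling, filters, a fold threshold (glmTreat), the libraries fitted, a gene length offset, a replicate block, leaving out each library, DESeq2 1.42.0 and limma-voom (limma 3.58.1). The fits that drop pre-Treg replicate 2 together with another choice were added after seeing the data. Promoters came from a RefSeq table of GRCm38.p6 and were searched for the κB consensus, a 10-base motif with degenerate positions. The splenic libraries were used only in the alternative fit of all 13 libraries.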

Additional observations from a re-analysis of the deposited data

Results flagged for a closer look

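The step differed between genotypes by the interaction test for 3 genes with all 9 thymic libraries. Nkg7 fell without c-Rel and rose in wild type, a difference of -2.95 on the log2 scale (SE 0.31, edgeR adjusted p = 0.0241). Ccl5 did likewise at low level, with a difference of -3.53 (SE 0.44, edgeR adjusted p = 0.0347). Rcn1 rose further without c-Rel, with a difference of 1.73 (SE 0.20, edgeR adjusted p = 0.0346). Over the 22 alternatives that gave a value, these differences ranged from -3.35 to -2.63 for Nkg7, from -3.75 to -3.28 for Ccl5 and from 1.63 to 1.85 for Rcn1, and 15, 13 and 12 of the alternatives called them. Markers of CD8 T and NK cells were lower for 8 of 14 and higher for 2 in the cRel-/- step, against 14.4% and 13.9% of all genes tested. In the wild-type step 4 of 14 were lower and 2 higher, against 12.5% and 11.5%. Nkg7 is itself among the markers lower in cRel-/- and higher in wild type. It was the 1 member of that list called for the interaction with all libraries. The part of CD8 T and NK cells in the Nkg7 and Ccl5 differences was not tested.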

How the results depend on the processing

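Scaling, filters and a length offset left the number of genes called in the cRel-/- step between 3496 and 4130, although upper-quartile scaling (1462 higher, 2190 lower) shifted the median of all genes to -0.11. It was 1227 against a fold of 1.5, 2201 with the cRel-/- libraries alone, 7337 by limma-voom, and 1111 to 6465 with 1 library left out. Dropping pre-Treg replicate 2 gave 5949 calls with the cRel-/- libraries alone and 6443 with DESeq2 size factors. The interaction counts were 12 with no filter, 1 against a fold of 1.5, 11 with all 13 libraries, 105 by DESeq2, 716 by limma-voom, 73 with DESeq2 size factors without pre-Treg replicate 2, and 0 to 74 by edgeR with 1 library left out. In wild type the counts were 654 against a fold of 1.5, 6645 by limma-voom, 5916 with DESeq2 size factors without cRel-/- pre-Treg replicate 2, and 512 to 5927 with 1 library left out. Replicate numbers of the titles were not taken to pair the samples. Same-numbered deviations from the group mean correlated at 0.0527 and 0.00773 in cRel-/- and -0.0529 in wild type. The 2 de novo libraries of a genotype deviate equally and oppositely from their mean, so such correlations cannot decide on pairing. The sample descriptions number the cRel-/- pre-Tregs otherwise (title replicates 1 and 3 have numbers 2 and 1, replicate 2 has none); by these numbers the correlations were -0.0527 and -0.0631, and no block was fitted. With the title number as a replicate block 2152 genes were called in cRel-/-, 2032 in wild type and 0 for the interaction by edgeR. Of 141 named genes called in the cRel-/- step, 82 kept call and direction under all 24 alternatives and 0 changed sign. Among uncalled genes, Cd5 was at -0.30 with all libraries, -0.52 to 0.041 with 1 left out, and 0.042 and 0.036 in the added fits without pre-Treg replicate 2 (cRel-/- libraries alone, DESeq2 size factors). Cd69 was at 0.15, at -0.090 to 0.32 with 1 left out, -0.091 by library totals, and -0.087 and -0.092 in those added fits. Tigit was at 0.40, and -0.039 to 0.74 with 1 left out, the lowest without de novo replicate 1. The causes were not tested. In 3 equal classes of gene length the median log2 fold change was 0.04, -0.02 and -0.10 from short to long genes in cRel-/-, and 0.15, -0.01 and -0.21 in wild type. With 2 or 3 libraries a group and 1 count table a stage, table and stage cannot be told apart within a genotype. Depth limits genes below 0.102 to 0.224 CPM.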
